A study of Mus musculus with 4 samples.

Results

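An immediate early CD8 cell was defined here as a barcode with at least 300 genes, at most 10% mitochondrial UMIs, at least 2 UMIs of Cd8a and Cd8b1 together, none of Cd4, Cd79a or Ccl5, and a UMI in each of at least 2 of the 4 genes Fosb, Ier3, Tnf and Gadd45b. A UMI is the count of 1 captured transcript molecule. The 4 libraries held 2055 such cells, out of 17169 Ccl5-negative CD8 cells that met every other part of the definition and out of 48597 barcodes in all. WT-CTRL held 536, WT-DOX 656, KO-CTRL 465 and KO-DOX 398. Because counts of the 4 genes chose the cells, every comparison with the other 15114 Ccl5-negative CD8 cells, here called the other cells, is a description with no test.

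The cells came from the draining lymph nodes of mice bearing MC38-OVA, a mouse colon carcinoma line that carries ovalbumin. T cells that were alive were sorted there by flow cytometry, and 1 library of the SeekOne DD 5′ single-cell kit was made for each group. WT-CTRL and WT-DOX carry the genotype label Control and the treatment labels Control and Doxorubicin. KO-CTRL and KO-DOX carry the label PD-L1 knockout, which the design text describes as conditional in dendritic cells, with the same pair of treatments. All 4 groups bore the tumour, and doxorubicin, a DNA-damaging chemotherapy drug, was given once tumours had formed. The Cre driver, the dose and time of doxorubicin, and the age and number of the mice in a library are not stated in the sources used here. With 1 library in each group no difference between groups has a replicate check, so no p-value is given, and all 95% intervals (exact Poisson for levels, Clopper-Pearson for shares) cover counting error only.

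Immediate early genes are transcribed within minutes of a stimulus without new protein synthesis, and in T cells they follow engagement of the T cell receptor. Fos, Fosb and Jun encode subunits of the AP-1 transcription factor. NF-kB, a factor that the same receptor activates, drives its own inhibitors and the cytokine TNF, while ZFP36 binds AU-rich elements in cytokine messages and speeds their decay. Mechanical or enzymatic preparation of tissue is also known to induce several of these genes.

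The definition itself required Cd8a or Cd8b1 transcripts, so the CD8 part of the label was set in advance, for the other cells too. All 11 genes of a CD8 T cell list had UMIs in both sets of cells in every library. Their summed level in immediate early cells was 4613 to 5129 CPM (UMIs per 1000000 UMIs of the summed cells). In the other cells it was higher, at 5428 to 5532 CPM. Zfp36, the only 1 of the 5 marker genes that the definition did not use, had a UMI in 89.6%, 91.2%, 90.3% and 84.4% of the cells in WT-CTRL and WT-DOX, then KO-CTRL and KO-DOX. In the other cells the values were 50.2%, 53.9%, 51.5% and 45.0%. Values listed in sets of 4 below keep this library order.

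The libraries were of similar depth, with 10372 to 12959 barcodes and 37754389 to 47081849 UMIs each, and the immediate early cells held 3093484 to 3262090 UMIs per library. A total of 1313 barcode pairs occurred in more than 1 library, and 97 immediate early cells carried such a barcode, but only 1 pair was immediate early in both libraries. Zbed5 set WT-DOX apart from the other libraries in immediate early and other cells alike, with 278 CPM in immediate early cells against 0.970 to 1.53 CPM elsewhere. Cd274, which encodes PD-L1, was counted at 63.7 to 93.8 CPM in the cells of ordinary depth defined below, and its level in T cells does not check a deletion in dendritic cells.

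Immediate early cells made up 12.0% (95% interval 11.02 to 12.9), 14.2% (13.2 to 15.2), 10.8% (9.86 to 11.7) and 10.7% (9.69 to 11.7) of Ccl5-negative CD8 cells. The share was highest in WT-DOX, whose interval lay apart from those of the other 3 libraries, and the intervals of the 2 knockout libraries overlapped. The ratio of the shares was 1.19 (1.07 to 1.32) for WT-DOX against WT-CTRL and 0.990 (0.872 to 1.12) for KO-DOX against KO-CTRL. For the genotypes, KO-CTRL against WT-CTRL gave 0.901 (0.802 to 1.01), and KO-DOX against WT-DOX gave 0.753 (0.670 to 0.846). Each library enters 2 of these 4 ratios, so they are not independent, and whether the response to doxorubicin differed between the genotypes was not tested.

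Deeper cells reach 2 genes more easily, and the immediate early cells were deeper, with median UMI counts of 3979, 3823, 4128 and 4302 against 3496, 3449, 3404 and 3469 in the other cells. After each cell had been thinned at random to 2000 UMIs, the shares were 6.23%, 7.43%, 4.64% and 4.95%, and the order of the 2 highest libraries was kept. The thinned ratio was 1.19 (1.02 to 1.40) for WT-DOX against WT-CTRL, 1.07 (0.872 to 1.31) for KO-DOX against KO-CTRL, 0.745 (0.620 to 0.895) for KO-CTRL against WT-CTRL and 0.666 (0.557 to 0.797) for KO-DOX against WT-DOX. A requirement of at least 3 of the 4 genes left 2.81%, 3.65%, 2.73% and 2.33%. The plot of shares by cell set shows WT-DOX highest in all 4 sets.

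**Figure D1:**
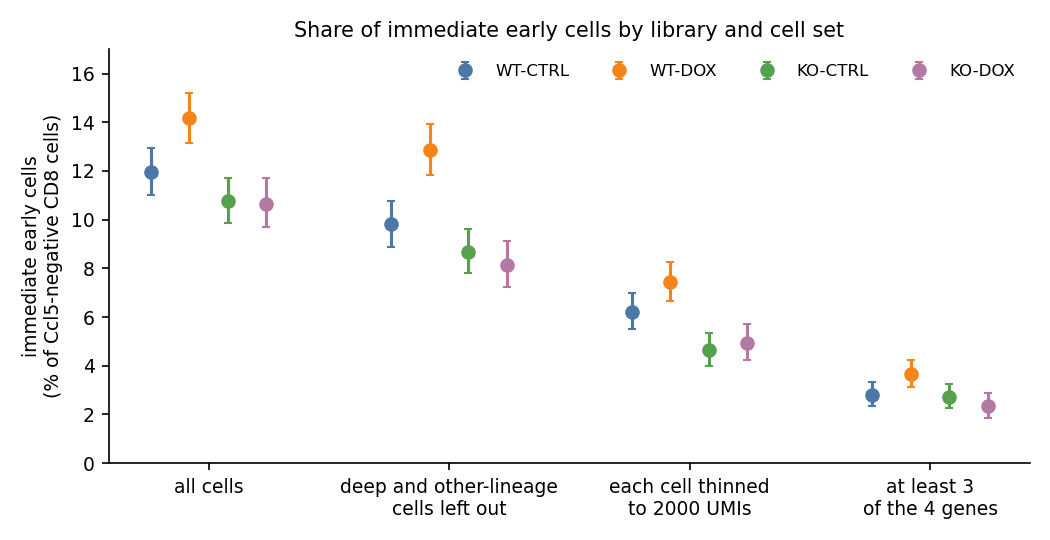
Immediate early cells as a percentage of Ccl5-negative CD8 cells (y axis) in 4 sets of cells (x axis): all cells, cells left after removal of deep cells and cells with a UMI of another lineage's gene, cells thinned to 2000 UMIs, and a stricter definition. Points are single libraries and bars are 95% Clopper-Pearson intervals; among all cells WT-DOX sits at 14.2% and the other 3 libraries between 10.7% and 12.0%.

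Next to the threshold, cells with exactly 1 of the 4 genes numbered 1210, 1308, 1183 and 975, and cells with exactly 2 numbered 410, 487, 347 and 311. Cells with 3 of the genes numbered 109, 151, 97 and 70, and those with all 4 numbered 17, 18, 21 and 17. Most immediate early cells therefore sat just inside the threshold. At the other threshold, 17.9%, 16.9%, 14.0% and 15.8% of them held exactly 2 UMIs of Cd8a and Cd8b1. Cells with exactly 1 such UMI met the rest of the definition in 11.3%, 11.02%, 8.88% and 8.03% of cases.

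The 4 defining genes contributed unequally. Gadd45b, which encodes a stress-induced regulator of MAP kinase signalling, had a UMI in 92.4%, 88.3%, 91.2% and 91.2% of immediate early cells. Fosb was seen in 72.0%, 67.7%, 73.3% and 74.4% and Tnf, the cytokine gene, in 43.1%, 49.8%, 47.1% and 45.5%. Ier3, which encodes an immediate early regulator of cell survival, was the rarest at 19.2%, 22.7%, 18.3% and 15.1%. Fosb together with Gadd45b was the commonest pair and occurred in 64.4%, 56.9%, 64.5% and 65.6% of the cells. The pair was least frequent in WT-DOX, where Tnf and Ier3 were both most frequent.

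The same 4 genes were not restricted to these cells. Of Ccl5-negative CD4 cells, 16.1%, 16.2%, 16.4% and 14.9% met the same rule, and after thinning the share was 7.84% to 8.29%. Of Ccl5-positive CD8 cells, at a median of 4405 to 4688 UMIs, 18.7%, 23.1%, 25.1% and 16.9% held at least 2 of the 4 genes. Cells with Cd79a, a B cell gene, had lower median UMI counts of 2211 to 2749. Of them, 1 of 35, 3 of 29, 5 of 56 and 3 of 59 held at least 2 of the genes. Whether this share reflects background was not tested. These last counts are small, with a lowest lower bound of 0.0723%.

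Among immediate early cells, 130, 109, 109 and 121 were deep, which means above 2 times the median UMI count of their library's kept barcodes. They were 24.3%, 16.6%, 23.4% and 30.4% of the immediate early cells, against 6.38%, 6.89%, 5.45% and 7.22% of the other cells. The deep cells held 53.2%, 36.4%, 59.5% and 66.6% of all UMIs in immediate early cells, so they weighed more in any sum than their number. In WT-DOX the remaining cells held most of the UMIs. The plot of depth shows this tail to the right of the limit.

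**Figure D2:**
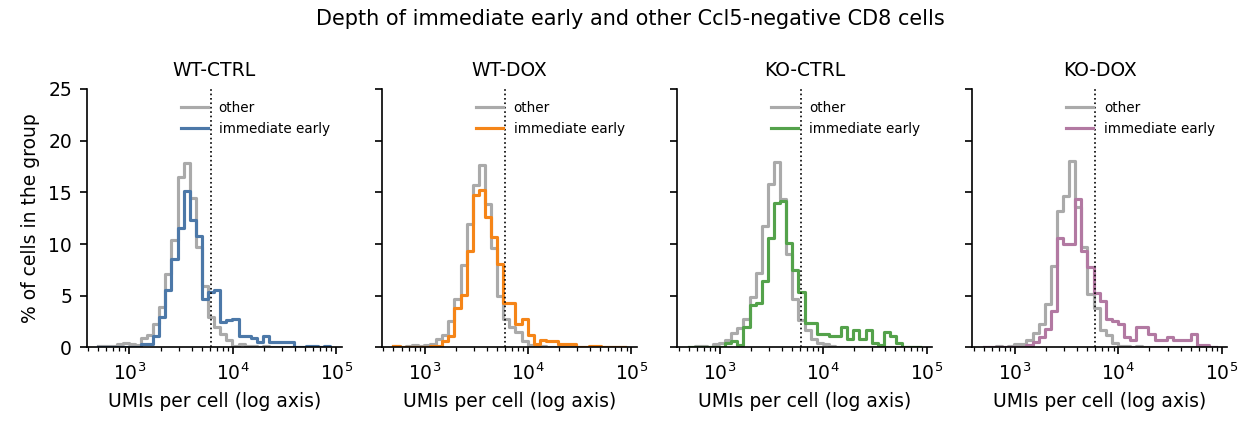
Distribution of UMIs per cell (x axis, log scale) in immediate early cells (coloured) and other Ccl5-negative CD8 cells (grey), as a percentage of each set of cells (y axis), with 1 panel per library. The dotted line marks 2 times the library's median UMI count, above which 16.6% to 30.4% of immediate early cells lie.

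The name immediate early described the deep cells less well than the rest. Fos stood at 441, 585, 315 and 280 CPM in them against 1509 to 1722 CPM in immediate early cells that were not deep, a mean log2 difference of -2.07. Set against deep cells among the other cells, at 306, 303, 285 and 316 CPM, the intervals for Fos lay apart only in WT-CTRL and WT-DOX. Zfp36 stood at 382, 561, 325 and 294 CPM against 262, 292, 277 and 216 CPM in deep other cells, with intervals that touched in KO-CTRL only. Jun was even lower in the deep immediate early cells of the 2 knockout libraries than in deep other cells, at 131 and 136 CPM against 247 and 310 CPM.

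Against immediate early cells that were not deep, the deep ones held more transcripts of division and effector genes. Mki67, a marker of cycling cells, reached 266, 126, 417 and 347 CPM against at most 8.11 CPM in those not deep. Top2a, a DNA topoisomerase of dividing cells, stood at 257 to 567 CPM against 15.2 to 19.4 CPM. Gzmb, a granzyme of cytotoxic cells, stood at 22.6 to 117 CPM against 0.758 to 13.5 CPM. Xcl1, a chemokine that attracts cross-presenting dendritic cells, reached 61.9 to 208 CPM against 1.93 to 13.0 CPM. Pdcd1, which encodes PD-1, stood at 20.1 to 36.0 CPM, a mean log2 difference of 3.18. Naive genes went the other way, with Lef1 at 201 to 429 CPM against 625 to 692 CPM and Il7r, the interleukin 7 receptor, at 131 to 299 CPM against 404 to 605 CPM. For these named genes the intervals of deep and not deep immediate early cells lay apart in all 4 libraries. How many of all genes lay apart in this contrast was not counted, so the statement covers these genes only. Deep other cells are not compared here for these genes. In the other cells a 25-gene division list summed to 1037.5 to 1206 CPM. At ordinary depth, defined below, the same list summed there to 787 to 806 CPM.

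A few deep cells also carried class II antigen presentation transcripts. H2-Aa, H2-Ab1 and H2-Eb1 together gave 683, 140, 104 and 711 UMIs in immediate early cells, from only 9, 9, 10 and 17 cells, and 586, 119, 91 and 545 of those UMIs sat in 1 cell of each library. No doublet caller was run, and whether such barcodes hold more than 1 cell was not tested. The cells are therefore described below in 2 ways: all of them, and those of ordinary depth. The latter leave out deep cells and cells with a UMI of a B cell or myeloid gene, among them Cd79b, Ms4a1, Lyz2, Itgax and Csf1r, on both sides of each comparison. This left 387, 525, 333 and 264 immediate early cells with 976427 to 1915605 UMIs per library, at median UMI counts of 3528, 3535, 3628 and 3679 against 3403, 3345, 3326 and 3353 in the other cells.

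A gene was called higher or lower when its CPM plus 1 differed at least 1.5-fold and both 95% Poisson intervals lay apart, among genes with at least 50 CPM and 30 UMIs in the higher set. This is a rule of size for 2 sets of cells in 1 library, not a test of conditions. At ordinary depth 107, 75, 96 and 85 genes were called in either direction (3.37%, 2.42%, 3.06% and 2.69% of those measured). In all 4 libraries 28 of 2914 genes were called higher (0.961%) and 1 lower (0.0343%). The 4 defining genes are among the 28, and the other 24 are described here by their roles. They were picked out after their values had been seen, and the definition, which picks such cells, stands behind all of these differences. Where 2 sets of 4 values are said below not to overlap, the values come from 4 conditions, not replicates. How many of the 2910 measured genes outside the definition do so was not counted.

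Of 19 listed AP-1 and growth factor immediate early genes, 9 outside the definition were measured in all libraries, and 6 of these were higher in all 4, with a median log2 difference of 0.95 against -0.07 over all 2910 genes outside the definition. Fos stood at 1728, 1629, 1683 and 1535 CPM in immediate early cells and at 451, 541, 478 and 497 CPM in the other cells of ordinary depth. Every immediate early value was above every other value, and the mean log2 difference was 1.74 (counting SE 0.02). Jun stood at 1160.0, 1184, 1027 and 1110.2 CPM against 516, 583, 499 and 484 CPM. Its mean log2 difference was 1.11, and the groups again did not overlap. Egr1, a zinc finger factor induced through the MAP kinase ERK, stood at 115, 103, 97.9 and 89.1 CPM against 43.1 to 47.9 CPM. Klf10, a growth factor-induced repressor, differed by a mean log2 of 1.63, Ier2 by 0.95 and Ier5 by 0.81. Junb, another AP-1 subunit, was high in both sets at 2959 to 3622 CPM against 1995.0 to 2297 CPM and was called in 3 of 4 libraries.

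Zfp36, the RNA decay gene, showed the largest mean difference of the 2910 measured genes outside the definition. It stood at 1633, 1652, 1381 and 1219.8 CPM against 347, 449, 379 and 280.0 CPM, a mean log2 difference of 2.02 (counting SE 0.02) or 4.06-fold. All 4 immediate early values were above the highest value in the other cells. It was the only 1 of the 9 measured genes of the RNA decay list that was called in all 4 libraries.

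Inhibitors of NF-kB were higher as well. Nfkbia, which encodes the inhibitor IkB-alpha, stood at 2683, 2849, 2605 and 2269.5 CPM against 1244, 1448, 1233 and 1140.5 CPM, a mean log2 difference of 1.04 (counting SE 0.01). Nfkbid, which encodes a nuclear IkB protein, stood at 126, 163, 132 and 100.4 CPM against 39.0, 49.5, 44.1 and 34.6 CPM, a mean of 1.61. Neither gene's 2 groups overlapped. Nfkbiz, another nuclear IkB gene, differed by 0.88, and Icam1, an adhesion molecule and NF-kB target, by 0.97. These 4 genes were the ones called in all libraries, out of 11 measured outside the definition from a list of 21 NF-kB feedback and target genes, and the list's median was 0.22. Tnfaip3, which encodes the deubiquitinase A20 and is an NF-kB target as well, stood at 665, 630.1, 705 and 718 CPM against 626, 651, 697 and 666 CPM. Its mean difference was 0.04, and the 2 groups overlapped.

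Of 8 measured genes of a 24-gene list induced by T cell receptor engagement, 4 were higher in all 4 libraries (Egr1, Nr4a1, Nr4a3 and Cd69), at a list median of 0.65. Nr4a1, a nuclear receptor gene that reports receptor signalling, stood at 143, 152, 135 and 143 CPM against 69.5, 77.1, 64.3 and 81.4 CPM, a mean log2 difference of 0.97 (counting SE 0.06). Nr4a3, its relative, differed by 0.88. Cd69, an early activation antigen that holds S1PR1 off the cell surface, stood at 751, 868, 868 and 803 CPM against 464, 525, 569 and 489 CPM, a mean of 0.69. S1pr1, which encodes the receptor that T cells need to leave the lymph node, was the 1 gene called lower in all 4 libraries, at 269.5, 194, 232 and 238 CPM against 412, 315, 367 and 363 CPM, a mean of -0.65 (counting SE 0.04). Its 4 immediate early values all lay below the lowest value in the other cells.

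Of 5 measured genes of a MAP kinase phosphatase and RGS list, 2 were higher in all 4 libraries (Dusp1 and Dusp2), at a list median of 0.24, and of 4 measured cytokine feedback genes 2 were (Socs1 and Pim1), at a median of 0.71. Dusp1, a phosphatase that switches off MAP kinases, stood at 578, 550.2, 573 and 436 CPM against 219, 252, 236 and 206 CPM, a mean log2 difference of 1.22. Dusp2, a nuclear phosphatase of the same family, differed by 0.95. Dusp10, another of these phosphatases, differed in the other direction by -0.37 and was called in no library. Socs1, which blocks cytokine receptor signalling, stood at 141, 167, 153 and 168 CPM against 67.9, 95.3, 92.8 and 89.7 CPM, a mean of 0.86. Pim1, a kinase gene downstream of STAT5, differed by 0.73. The remaining genes called in all 4 libraries were Sertad1 (0.998), Gm26887 (0.94), Sytl3 (0.92), Slc38a2, an amino acid transporter (0.91), Kdm6b, a histone demethylase (0.87), and Chka, choline kinase (0.87), each given with its mean log2 difference. The dot plot of these genes shows all 4 libraries to the right of the 1.5-fold line at ordinary depth, and a wider scatter when all cells are summed.

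**Figure D3:**
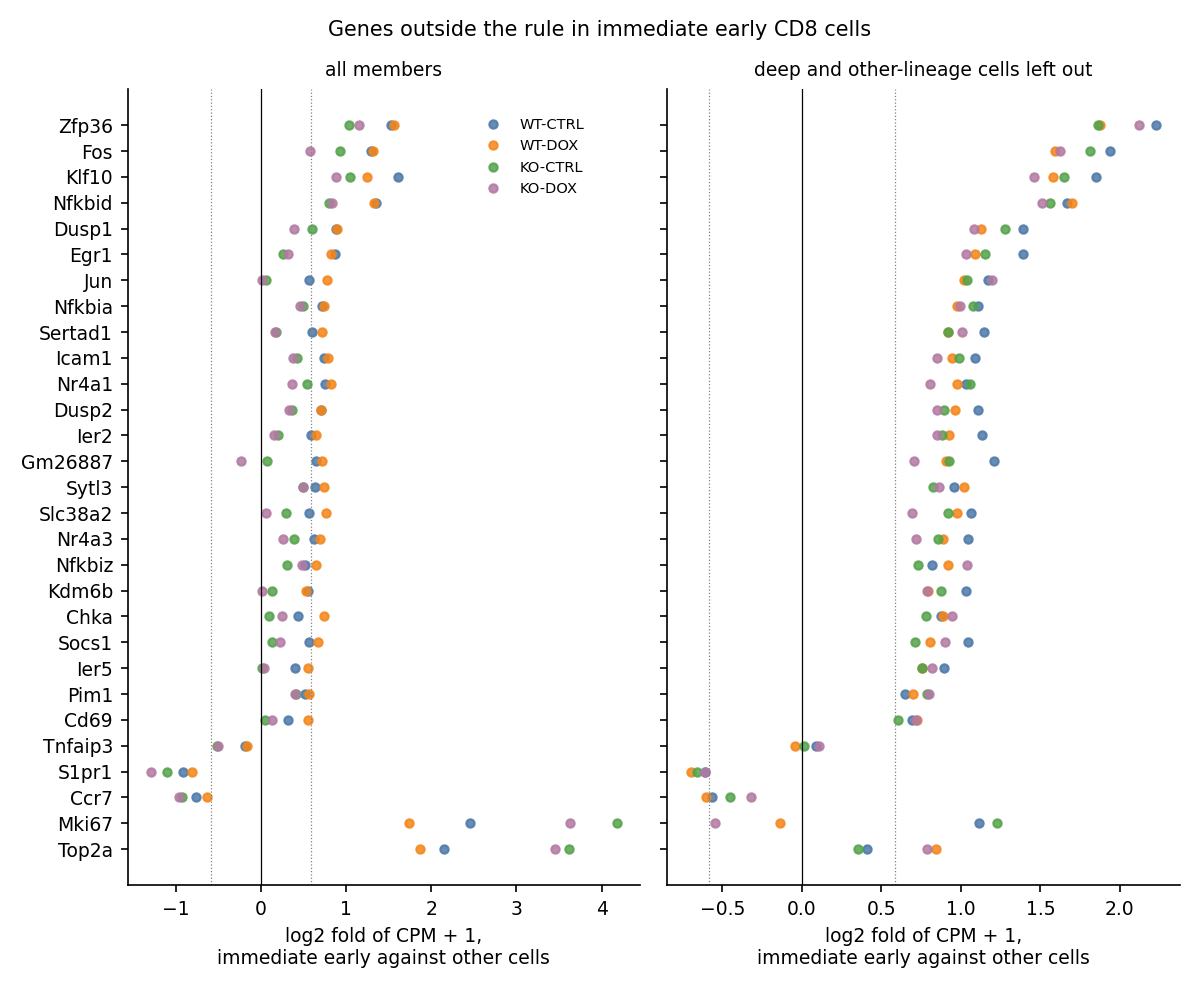
Log2 fold of CPM plus 1, immediate early against other Ccl5-negative CD8 cells (x axis), for the 24 genes outside the definition called higher in all 4 libraries at ordinary depth and 5 genes for contrast (y axis). Points are libraries, dotted lines mark 1.5-fold, and the 2 panels have different x scales; Mki67 and Top2a stand far to the right only when deep cells are included.

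Promoter sequences are given for 3 of these genes, because they show 2 of the classical inducible elements next to the start site. Windows of 300 bases, from 250 before to 50 after the start, were found in RefSeq (GRCm38.p6) for 17 of the 24 genes. The first 250 bases are printed, 5′ to 3′ on the gene's strand, with the matched letters in capitals: a CArG box, the sequence bound by serum response factor, in Zfp36 (chr7:28379229-28379478, minus strand), and an NF-kB site in Nfkbia (chr12:55492648-55492897, minus strand) and in the defining gene Ier3 (chr17:35821463-35821712, plus strand).
Zfp36: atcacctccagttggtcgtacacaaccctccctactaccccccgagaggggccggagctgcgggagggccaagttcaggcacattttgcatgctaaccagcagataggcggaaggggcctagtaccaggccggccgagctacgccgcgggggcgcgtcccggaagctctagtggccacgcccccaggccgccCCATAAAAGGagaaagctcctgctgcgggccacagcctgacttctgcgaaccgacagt
Nfkbia: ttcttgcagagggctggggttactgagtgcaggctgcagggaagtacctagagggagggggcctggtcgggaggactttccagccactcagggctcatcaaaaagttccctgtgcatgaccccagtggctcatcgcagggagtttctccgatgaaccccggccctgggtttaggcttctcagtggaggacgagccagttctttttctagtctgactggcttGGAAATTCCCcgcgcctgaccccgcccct
Ier3: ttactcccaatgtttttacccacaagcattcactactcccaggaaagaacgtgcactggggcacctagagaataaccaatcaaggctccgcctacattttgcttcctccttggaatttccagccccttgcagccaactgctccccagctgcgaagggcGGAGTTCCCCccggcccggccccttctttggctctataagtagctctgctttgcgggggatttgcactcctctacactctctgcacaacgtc
The first matched base lies 58 bases before the start in Zfp36, 29 in Nfkbia and 92 in Ier3. A gene counted as matched if any of its windows held the motif on either strand. The CArG box matched 1 of the 17 genes (Zfp36) and 1.81% of all 27025 genes with a window. NF-kB sites matched 4 of the 17 (Fos, Nfkbid, Nfkbia and Nr4a1) and 9.55% of all. The cAMP response element TGACGTCA matched Nfkbid and Dusp1 and 2.03% of all these genes. TGACTCA, an AP-1 site, matched none of the 17 and 5.95% of all. Some cAMP response elements and AP-1 sites share letters, and these matches are descriptions of the windows, not binding sites.

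After thinning to 2000 UMIs, levels of several genes outside the definition were higher by steps across its threshold, not only at it. Zfp36 stood at 248 to 335 CPM in cells with none of the 4 genes, 508 to 985 CPM with 1, 1348 to 1817 CPM with 2 and 1983 to 2602 CPM with 3 or 4. Fos stood at 376 to 440.0, 751 to 1010.2, 1593 to 1950.0 and 2172 to 2980 CPM over the same 4 classes. Each step was upward in all 4 libraries for these genes and for Jun, Junb, Ier2, Klf10, Nr4a1, Egr1 and Dusp2. At the deposited depth this held in all 4 libraries for Klf10 alone among these 9 genes, in 3 for Fos, Nr4a1 and Dusp2, in 2 for Zfp36, Ier2 and Egr1, in 1 for Jun and in none for Junb. Junb there stood in KO-DOX at 1801 CPM with 2 of the genes and 1291 CPM with 3 or 4. After thinning, cells just outside the threshold, with 1 of the genes, thus stood between the cells with none and the immediate early cells. Dusp1 levelled off at 521 to 637 CPM with 2 genes and 466 to 706 CPM with 3 or 4. Tnfaip3 stood at 611 to 679, 644 to 727, 625 to 760 and 480 to 776 CPM, with each step upward in KO-DOX alone. Ccr7, the receptor that guides naive T cells into the lymph node, was lower at each step in all 4 libraries, thinned or not, from a thinned 670 to 811 CPM with none to 286 to 448 CPM with 3 or 4, and Lef1, a factor of naive T cells, did so as well.

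**Figure D4:**
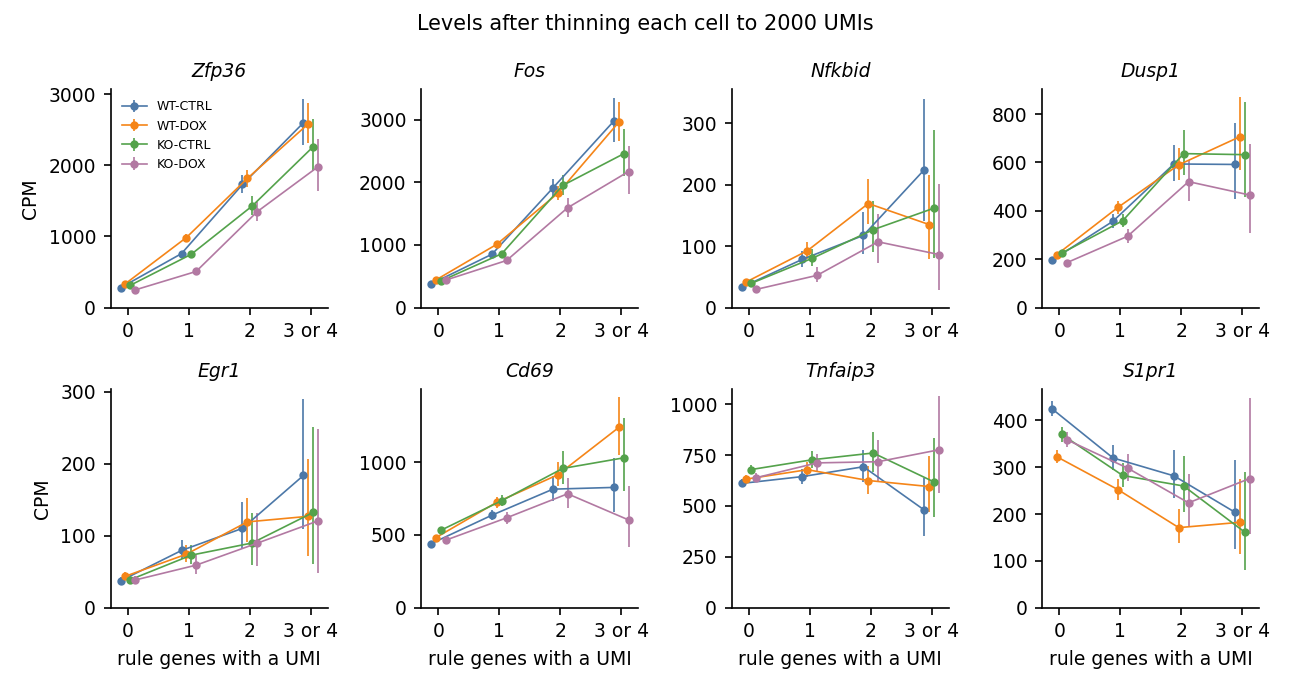
CPM after thinning each cell to 2000 UMIs (y axis, each panel with its own scale) of 8 genes in Ccl5-negative CD8 cells with 0, 1, 2, or 3 or 4 of the 4 defining genes (x axis). Lines are libraries and bars 95% Poisson intervals, which are wide for 3 or 4 genes; Zfp36 and Fos climb over all classes, Tnfaip3 steps upward throughout in KO-DOX alone, and S1pr1 is highest in cells with none.

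Shares of cells with a UMI gave the same order. After thinning, 82.8%, 79.0%, 79.7% and 80.5% of immediate early cells of ordinary depth had a UMI of Fos, against 43.6%, 49.1%, 46.1% and 47.4% of the other cells. Without thinning the values were 90.7%, 90.3%, 88.3% and 89.0% against 55.5%, 59.8%, 56.5% and 59.0%. Nr4a1 or Egr1 was seen after thinning in 34.5%, 36.0%, 32.1% and 33.2% against 17.8%, 20.1%, 17.7% and 19.2%. Without thinning these shares were 48.3% to 51.5% of the cells. The remaining immediate early cells had no UMI of either receptor-linked gene at the deposited depth.

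Other programmes were close to the other cells at ordinary depth. No gene was called in all 4 libraries among the measured members of the heat shock and dissociation list (9 genes, median log2 difference 0.19), the p53 target list (6, median -0.03), the memory and effector list (8, median 0.06), the type I interferon list (17, median -0.06) or the cell division list (3, median 0.01). The heat shock and dissociation list, which includes genes that tissue preparation induces, summed to 5876 to 6282 CPM against 4835 to 5361 CPM, so its total did not overlap. Its members Hspa8 and Hsp90aa1, both chaperone genes, differed by 0.26 and 0.33, and Hspa1a, the inducible chaperone, was at 0 to 3.65 CPM. The part of tissue preparation in the immediate early signal was not tested. Of 16 naive and quiescence genes S1pr1 alone was called in all 4 libraries, and Ccr7 differed by -0.49 with 1 call. Ifng, the interferon gamma gene, stood at 8.19 to 22.4 CPM and Pdcd1 at 1.02 to 3.26 CPM, under the 50 CPM minimum.

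Summed markers of other cell types at ordinary depth were apart from the other cells in some libraries. A list of 18 dendritic and myeloid genes, 4 to 8 of them with a UMI, summed to 219 to 256 CPM against 192 to 235 CPM, with intervals apart in WT-CTRL (227 against 192 CPM). Siglech, Cd14 and S100a8 were at 0, and Itgax, Lyz2 and Csf1r were at 0 because cells with them were left out. In WT-CTRL the listed genes with a UMI included Tyrobp, Itgam, Zbtb46 and S100a9. The levels of single genes in this sum are not given here. A list of 14 B and plasma cell genes summed to 166 to 226 CPM against 166 to 184 CPM, apart in KO-DOX (226 against 184 CPM), with Cd79a, Cd79b and Ms4a1 at 0 because cells with them were left out. A CD4 list of 10 genes summed to 85.1 to 126 CPM against 73.2 to 84.99 CPM, with Cd4 at 0 by definition. This sum was higher in each library, with intervals apart in KO-CTRL at 126 (107 to 148) against 75.3 (70.5 to 80.5) CPM. NK and gamma delta genes, 14 in number with Ncr1 at 0, summed to 3.13 to 6.14 CPM against 5.23 to 6.26 CPM. The part of these transcripts in the results was not tested.

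In the sum over all immediate early cells, genes of cell division were higher. Here 317, 99, 857 and 937 genes were called in either direction (9.48%, 3.14%, 24.8% and 26.9%). In WT-DOX 71 were higher and 28 lower, and 64 and 40 under median-of-ratios scaling. In all 4 libraries 46 of 3016 genes were higher (1.53%) and 16 lower (0.531%), and of the 46 higher genes 43 lay outside the definition. Only 5 of the higher genes and S1pr1 were also called in all 4 at ordinary depth. The 5 include defining genes, which the choice of cells put there, beside Zfp36 and Nfkbid. Of 9 measured division genes outside the definition, 6 were higher in all 4 libraries (Ube2c, Birc5, Top2a, Stmn1, Hmgb2 and Mcm3), with a median log2 difference of 2.02 against -0.05 over all genes. Of 11 measured memory and effector genes 3 were higher in all 4 (S100a6, Lgals1 and Ly6a), at a median of 0.34. None of 8 AP-1 genes was called in all 4, at a median of 0.30. Of 16 naive genes Ccr9, S1pr1 and Ccr7 were lower.

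Among genes outside the definition called higher in all 4 libraries over all immediate early cells, Gzma, a granzyme gene, had the largest mean log2 difference, 4.24, at 88.3, 238, 225 and 316 CPM. Its UMIs came from 14, 7, 14 and 19 cells, with up to 369 UMIs in 1 cell, so it describes few cells. Next came Ifitm1 (3.52), the histone genes Hist1h1b (3.48) and Hist1h3c (3.34), Pclaf (3.15), Ube2c (3.14), Hist1h2ae (3.12), Birc5 (2.95), Top2a (2.77), Cd74 (2.70) and Stmn1 (2.51). S100a6 (2.48), Lgals1 (2.34), Bhlhe40 (2.04), Hmgb2 (2.02) and Zfp981 (1.98) completed the 16 largest of these genes. At ordinary depth Hist1h3c and Hmgb2 turned to -0.24 and -0.25, and Top2a stood at 0.60. S100a6, a calcium-binding protein gene of activated T cells, kept 1.74 with calls in 2 of 4 libraries.

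Among genes called lower in all 4 libraries over all cells, the 8 smallest mean log2 differences belonged to Vps37b (-1.15), Ifngr2, a chain of the interferon gamma receptor (-1.14), Ccr9, a gut-homing receptor (-1.09), Frat2 (-1.06), Fam241a (-1.04), S1pr1 (-1.03), Zfp260 (-0.93) and P2ry10 (-0.92). At ordinary depth Vps37b (-0.74), Ifngr2 (-0.64) and P2ry10 (-0.87) were still called lower in 3 of 4 libraries. Cd8a and Cd8b1 differed little there, by -0.19 and -0.10.

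Immediate early cells of ordinary depth differed among themselves. Those with Tnf were 42.1%, 49.1%, 41.4% and 44.3%. They had less Fosb than those without Tnf, at 236 to 292 CPM against 367 to 440.3 CPM, with intervals apart in 3 of 4 libraries, but either gene helps to meet the definition, which by itself sets them against each other. Zfp36 and Fos, which the definition did not use, differed between them by a mean log2 of only 0.03 and -0.03. Cells with a UMI of Nr4a1 or Egr1 had more Zfp36, at 1377 to 1805 CPM against 1047 to 1532 CPM, a mean of 0.32 with intervals apart in all 4 libraries. Their median UMI counts were also higher, at 3616 to 3929 against 3420.0 to 3564.

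Cells with a UMI of Ly6c2, a surface protein of memory-like CD8 cells, were 29.7%, 31.6%, 34.5% and 29.2% of immediate early cells at ordinary depth. Fos was lower in them, at 1302 to 1489 CPM against 1647 to 1875 CPM, and so was Junb, at 2687 to 3160 CPM against 3089 to 3893 CPM, in both cases with intervals apart in all 4 libraries. Il2rb, the receptor chain shared by interleukins 2 and 15, was higher at 66.8 to 82.2 CPM against 21.8 to 35.1 CPM, with intervals apart in 3. Cd8a was lower at 260 to 278 CPM against 376 to 452 CPM in all 4. The Ly6c2 cells were deeper, with median UMI counts of 3944 to 4087 against 3328 to 3515. Ly6c2 itself did not mark immediate early cells, since after thinning 27.1%, 23.6%, 31.1% and 21.5% of them had a UMI against 26.2%, 22.0%, 25.1% and 27.1% of the other cells, and the groups overlapped.

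No T cell receptor beta V segment stood apart. A segment was assigned to 326, 443, 272 and 231 immediate early cells of ordinary depth, and 18 to 20 segments were seen in each library. The commonest were Trbv12-2 in WT-CTRL (9.82%), Trbv13-2 in WT-DOX (10.6%), Trbv12-2 in KO-CTRL (9.56%) and Trbv16 in KO-DOX (12.1%), against 8.602% to 9.33% for the commonest in the other cells. In none of 140 pairs of segment and library did the interval of the share lie apart from that of the other cells. The 140 pairs include segments with no cell in either set, which could not lie apart. In the other cells 20 to 21 segments were seen per library. With so few cells, differences smaller than these intervals were not detectable.

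Of the 24 genes, 9 were also called higher in all 4 libraries in CD4 cells chosen by the same rule, where 137 of all 3304 measured genes were (4.15%, defining genes included). All 24 had a mean log2 difference above 0 in these CD4 cells against other CD4 cells, at ordinary depth. The share of all measured genes with a mean above 0 in that contrast was not counted. Zfp36 differed by 1.39 there (2.02 in CD8 cells), Fos by 1.38 (1.74) and Dusp1 by 1.28 (1.22). Jun differed by 0.30 in CD4 cells against 1.11 in CD8 cells, and Slc38a2 by 0.41 against 0.91. Neither was called in any CD4 library. S1pr1 differed by -1.17 in CD4 cells. Whether the CD4 and CD8 differences are themselves apart was not tested.

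Between libraries, immediate early cells of ordinary depth held levels close to each other. The 4 comparisons share libraries, each library entering 2. WT-DOX against WT-CTRL gave 15 genes higher (0.489%), 33 lower (1.07%) and 48 in either direction (1.56%). KO-DOX against KO-CTRL gave 21 (0.676%), 23 (0.74%) and 44 (1.42%). KO-CTRL against WT-CTRL gave 21 (0.679%), 28 (0.905%) and 49 (1.58%), and KO-DOX against WT-DOX gave 27 (0.875%), 16 (0.519%) and 43 (1.39%). In the more numerous other cells the same comparisons called 0.448%, 0.322%, 0.192% and 0.355%, and 8, 0, 4 and 3 genes were called in the same direction in both sets of cells. Mitochondrially encoded transcripts, whose level can reflect RNA quality, set KO-DOX apart. The 13 listed genes summed to 828 CPM in its immediate early cells of ordinary depth against 979 to 1134 CPM in the other 3 libraries, and to 675 against 1056 to 1105 CPM in the other cells. None was called between libraries in immediate early cells at ordinary depth, and the part of this difference in the comparisons with KO-DOX was not tested.

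In WT-DOX against WT-CTRL none of 9 measured AP-1 genes and none of 13 NF-kB genes outside the definition was called in immediate early cells of ordinary depth. Fos differed by a log2 of -0.09 and Zfp36 by 0.02, while in the other cells they differed by 0.26 and 0.37. The share of immediate early cells was higher in WT-DOX, while the level of these transcripts within them was not called higher. Rrad, a small GTPase gene, stood at 140 against 99.8 CPM (0.48), Ier3 at 105 against 79.9 CPM (0.40) and Nfkbid at 163 against 126 CPM (0.37), all short of the size rule. Zbed5, named above, and Ehbp1 (1.70, other cells 1.57), 9930111J21Rik2, Sra1 (0.87), E2f4 (0.84) and Emc2 (0.79) were the 6 highest. Rps27rt (-1.07, other cells -1.03), Strbp (-1.05), Ezh2, a histone methyltransferase gene (-1.04), S100a6 (-1.02), Mitd1 (-0.97) and Gpr183, a receptor for oxysterols (-0.87), were the 6 lowest. Bbc3, the p53 target PUMA, stood at 31.8 against 17.1 CPM, under the 50 CPM minimum, with a log2 difference of 0.86 in immediate early and 0.88 in other cells.

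In KO-DOX against WT-DOX, none of 9 AP-1 genes and 1 of 13 NF-kB genes outside the definition were lower in immediate early cells of ordinary depth. Ier3, a defining gene on both lists and so a description only, stood at 58.4 against 105 CPM (log2 -0.84, counting SE 0.22; other cells -0.44). Nfkbid stood at 100.4 against 163 CPM (-0.69, counting SE 0.17; other cells -0.50). Rrad stood at 79.9 against 140 CPM (-0.80), with -0.27 in the other cells. Zfp36 stood at 1219.8 against 1652 CPM (-0.44), and in the other cells it differed by -0.68 and was called. Fos (-0.09) and Jun (-0.09) were near 0. The median difference of the AP-1 list was -0.20 in immediate early and in other cells alike.

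Ly6a, an interferon-induced surface antigen, was higher in KO-DOX than in WT-DOX, at 138 against 41.2 CPM (log2 1.72, other cells 1.20). It stood at 45.6, 41.2, 119.9 and 138 CPM over the 4 libraries, high in both knockout libraries and low in both control ones, in the other cells too. Ddx60, a sensor of viral RNA (1.03), Sod1, a superoxide dismutase (1.05), and Gm42031 (1.44) followed. Gzma and Ifitm1 led this comparison by size, but 85 of the 87 Gzma UMIs and all 49 Ifitm1 UMIs in KO-DOX came from 1 cell. On the low side stood Zbed5 and 9930111J21Rik2, then Slc15a2, a peptide transporter (-0.89), Trbv15 (-0.85), Ier3 and Mrpl28 (-0.84). Trbv15 was the assigned segment in 8 of 231 cells in KO-DOX (3.46%) and 15 of 443 in WT-DOX (3.39%). Its call therefore rests on UMIs of few cells, and the share of cells with it was not lower.

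In KO-CTRL against WT-CTRL, 5 of 23 measured type I interferon genes were higher and none lower, at a list median of 0.44 against 0.32 in the other cells. Isg15, a ubiquitin-like interferon product, stood at 79.9, 92.9, 177 and 88.1 CPM, highest in KO-CTRL. KO-CTRL against WT-CTRL gave 1.14 (counting SE 0.17) in immediate early and 0.96 in other cells. Ifit3 stood at 60.3 against 22.1 CPM (1.41, other cells 1.30) and Usp18, which removes ISG15, at 53.8 against 23.5 CPM (1.16, other cells 0.72). Hnrnpa0 (1.28, other cells 1.36) and Ehbp1 (1.16, other cells 1.06) were also among the 6 highest. Atad1 (-1.22), S100a6 (-1.14), N4bp2 (-1.13), Auts2, Trbv3 and Wwox were the 6 lowest. Trbv3 was the assigned segment in 14 of 272 cells in KO-CTRL and 30 of 326 in WT-CTRL, with overlapping intervals of the share. No AP-1 or NF-kB gene was called.

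KO-DOX against KO-CTRL showed the reverse for interferon genes, with 5 of 24 lower at a list median of -0.26 against -0.16 in the other cells. Isg15 differed by -0.998 (other cells -0.57), Ifit3 by -1.32 (-1.04) and Usp18 by -0.94 (-0.60). Slfn5, an interferon-induced regulator, stood at 31.7 against 80.7 CPM (-1.32), with -0.48 in the other cells. Since both comparisons contain KO-CTRL, they do not support each other. Klf10 was the only AP-1 gene called, at 69.6 against 106 CPM (-0.60, other cells -0.42). Cdk8, a kinase gene of the Mediator complex, stood at 704 against 1551 CPM (-1.14), but 166 of its UMIs in KO-CTRL came from 1 cell. Trbv17 (-1.39), Lactb (-1.24) and Trbv15 were also low, and Gzma, Ifitm1, Trbv3 (0.94), Helb (0.94), S100a6 (0.91) and Htatsf1 (0.89) were the 6 highest. The V segment calls rest on few cells. Trbv17 was assigned to 6 of 231 cells in KO-DOX and 13 of 272 in KO-CTRL, Trbv15 to 8 and 15, and Trbv3 to 22 and 14. For each of these segments the intervals of the 2 shares overlapped. The plot of levels by library shows Isg15 and Ly6a beside the immediate early genes.

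**Figure D5:**
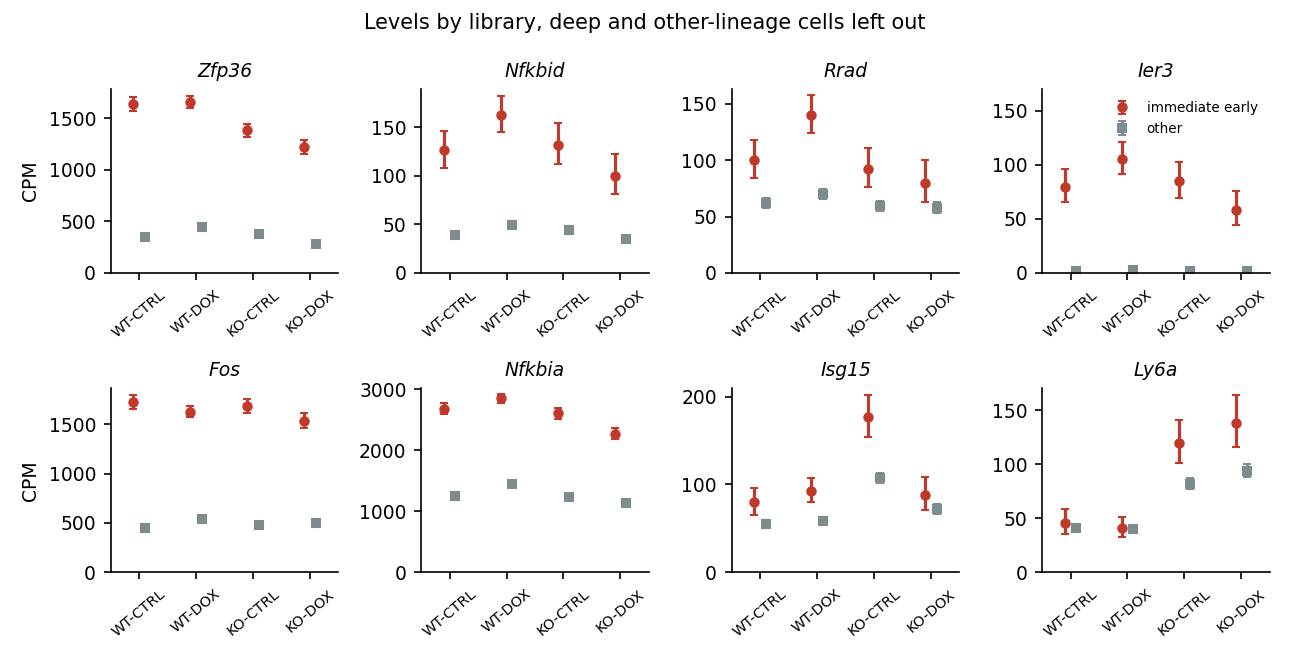
CPM (y axis, each panel with its own scale) of 8 genes in immediate early (red circles) and other Ccl5-negative CD8 cells (grey squares) of ordinary depth, by library (x axis). Bars are 95% Poisson intervals; Isg15 is highest in KO-CTRL at 177 CPM, Ly6a is high in both knockout libraries, and Ier3 runs from 58.4 CPM in KO-DOX to 105 CPM in WT-DOX.

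Sums over all immediate early cells called more genes than those at ordinary depth in 3 of the 4 comparisons, and about as many in KO-DOX against KO-CTRL. WT-DOX against WT-CTRL called 16 genes higher (0.496%), 128 lower (3.97%) and 144 in either direction (4.46%). KO-DOX against KO-CTRL called 18 (0.549%), 28 (0.853%) and 46 (1.4%), KO-CTRL against WT-CTRL 101 (3.04%), 43 (1.29%) and 144 (4.33%), and KO-DOX against WT-DOX 537 (15.9%), 129 (3.81%) and 666 (19.7%). Of these calls 18, 6, 17 and 22 were also made at ordinary depth in the same direction. Deep cells held 36.4% of the UMIs in WT-DOX and 66.6% in KO-DOX, and their part in these counts was not tested beyond leaving them out. Over all immediate early cells KO-DOX was lower than WT-DOX in 6 of 6 measured genes of the mitochondrial genome, and lower than KO-CTRL in 4 of 5. The 13 listed genes summed to 458 CPM in KO-DOX against 753 to 845 CPM in the other 3 libraries.

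Of 19 measured division genes 18 were higher in KO-DOX than in WT-DOX over all cells, at a median of 1.62 against 0.12 in the other cells. Of 16 such genes 14 were lower in WT-DOX than in WT-CTRL, and of 20 such genes 16 were higher in KO-CTRL than in WT-CTRL. KO-DOX against KO-CTRL called none of 20. Mki67 stood at 145, 46.8, 251 and 232 CPM, lowest in WT-DOX, with a UMI in 48, 24, 57 and 58 cells. Histone genes led, with Hist1h2bm at 55.6 against 1.91 CPM (4.28), Hist1h2ai (4.06) and Hist1h2bn (3.604) in KO-DOX against WT-DOX. At ordinary depth only 3 division genes were measured and none was called in any comparison.

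Over all cells 8 of 9 AP-1 genes outside the definition were lower in KO-DOX than in WT-DOX, at a median of -0.79 against -0.21 in the other cells, and 2 of 13 NF-kB genes were. Zfp36 differed by -1.07, Fos by -0.86 and Jun by -0.998, against -0.44, -0.09 and -0.09 at ordinary depth. Class II genes followed single cells. H2-Aa stood at 99.97, 15.9, 12.0 and 107 CPM, and 277, 45, 31 and 255 of its UMIs came from 1 cell in each library. Its log2 differences, -2.58 for WT-DOX against WT-CTRL, -2.96 for KO-CTRL against WT-CTRL and 3.06 for KO-DOX against KO-CTRL, therefore describe those cells.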

How the data were processed

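The labels give 4 single-cell 5′ libraries of sorted lymph node T cells, 1 per group. The deposited values are counts of UMIs per gene and barcode, for 32285 genes, aligned to mm10 per the submitters' processing notes. Which aligner and cell caller they used is not given in the sources used here. UMIs were summed over cells and divided by their total (CPM). Log2 folds are of CPM plus 1, and the counting SE comes from the UMI counts alone. Genes were compared as described in the report, with intervals at the 95% level. Thinning drew 2000 UMIs per cell (seed 11), and shallower cells were left out. No doublet caller was run. Some genes in the lists and filters are not reported here. Cells above 2 times the library median UMI count or with another lineage's gene were left out as an alternative, called ordinary depth. Named genes were the 4 defining genes and Zfp36, the 16 largest and 8 smallest mean folds among genes called in all 4 libraries, 6 per direction between libraries, up to 3 per list from 26 lists, and a fixed list. The genes named at ordinary depth were chosen after their values were seen. The members and lists were chosen with earlier results of these data known. The calculation was tested on simulated data. Those were Poisson counts around summed levels, with no variation between cells. They do not show how often single cells lead to a call. Promoters came from RefSeq (GRCm38.p6). Tools were Python 3.11.15, numpy 2.4.6, scipy 1.17.1, pandas 2.3.3 and matplotlib 3.10.9.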

Additional observations from a re-analysis of the deposited data

How the results depend on the processing

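With 1 library in each group, leaving out a replicate was not possible. No paired analysis was possible because each group has 1 library and the labels carry no replicate numbers. Filters of 800 genes and 5% mitochondrial UMIs, and leaving out barcodes seen in another library, left all 8 shares and ratios within their intervals. Median mitochondrial shares in immediate early and other cells were only 0.0316% to 0.0620% of UMIs per cell. The 5% limit could therefore change little. Median-of-ratios scaling and a pseudocount of 5 CPM left all 8 counts of genes apart within 1.5 times their value. Under that scaling WT-DOX against WT-CTRL gave 13 genes higher and 167 lower, against 16 and 128. The alternatives on shared barcodes, on class II transcripts and on choosing cells after thinning were added after the data had been seen.

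The share of immediate early cells in WT-CTRL and WT-DOX, then KO-CTRL and KO-DOX, became 2.81%, 3.65%, 2.73% and 2.33% with at least 3 of the 4 genes, 9.80%, 12.9%, 8.68% and 8.14% at ordinary depth, and 6.23%, 7.43%, 4.64% and 4.95% after thinning. The ratio of KO-DOX to KO-CTRL became 0.853 with at least 3 genes, and that of KO-DOX to WT-DOX 0.639. At ordinary depth KO-DOX to WT-DOX became 0.633. After thinning KO-CTRL to WT-CTRL became 0.745 and KO-DOX to WT-DOX 0.666.

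Counts of genes apart from the other cells moved by over 1.5 times in 3 libraries, and in WT-DOX only with no filter on low values. In WT-CTRL, KO-CTRL and KO-DOX they became 99, 130 and 133 with each cell given the same weight, 126, 182 and 181 with every cell thinned, 152, 124 and 131 with cells chosen and counted after thinning, and 107, 96 and 85 at ordinary depth. With no filter on low values they became 1291, 2322 and 2474, and 628 in WT-DOX. Between libraries, WT-DOX against WT-CTRL became 85 with class II cells left out, 52 with equal weight, 43 after thinning, 48 at ordinary depth and 473 with no filter. KO-DOX against KO-CTRL became 27 after thinning and 190 with no filter. KO-CTRL against WT-CTRL became 55 with equal weight, 26 after thinning, 49 at ordinary depth and 398 with no filter. KO-DOX against WT-DOX became 270 with class II cells left out, 114 with equal weight, 45 after thinning, 43 at ordinary depth and 1366 with no filter. The cause was not tested beyond what each alternative leaves out.

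Some genes named over all immediate early cells changed direction on the log2 scale. With class II cells left out, Gzma in WT-DOX against WT-CTRL became -4.11. With cells chosen after thinning, the difference from the other cells became -0.55 for Birc5, -0.54 for Gzma, -0.80 for Hist1h1b, -0.13 for Hist1h2ae, -0.15 for Hmgb2, -0.056 for Ifitm1 and -0.95 for Ube2c. In KO-CTRL against WT-CTRL, Cd74 became 0.72, Gzmb -2.75, H2-Aa 1.89, Hist1h2bg -3.64 and Hist1h4h -1.22. In WT-DOX against WT-CTRL, Gzma became -1.54, H2-Eb1 1.35 and Agbl4 -0.045, and in KO-DOX against WT-DOX Agbl4 became 0.22. In KO-DOX against KO-CTRL, Hist1h2bg became 1.95, Hist1h3f 0.068, Hist1h4d 0.86, Hist1h4h 0.86, Trbv13-2 -0.044, Trbv14 -0.78 and Trbv20 1.01.

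At ordinary depth the difference from the other cells became -0.24 for Hist1h3c and -0.25 for Hmgb2. In WT-DOX against WT-CTRL, Gzma became -2.75 and Hist1h1a 0.38. In KO-CTRL against WT-CTRL, Gzmb became -0.79, H2-Aa 0.62, H2-Eb1 0.084, Hist1h2bg -0.49, Hist1h2bn -0.80, Hist1h3e -0.54, Hist1h3f -0.41 and Hist1h4h -0.31. In KO-DOX against KO-CTRL, H2-Eb1 became -0.86, Hist1h3f 0.24, Trbv14 -0.52 and Trbv20 0.84. None of these genes is among the 24 called at ordinary depth. A single library per group, at most 656 immediate early cells and an unknown number of mice limit every comparison, and a difference within the counting intervals was not detectable.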

Other observations

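Several further genes, of chemokine, survival, stress and growth functions, were called in some but not all libraries in immediate early cells of ordinary depth. Cxcl10, a chemokine that draws activated T cells, stood at 52.1, 37.1, 74.2 and 41.0 CPM in WT-CTRL and WT-DOX, then KO-CTRL and KO-DOX, against 14.0 to 14.7 CPM in the other cells, a mean log2 difference of 1.72, and was called in 2 of 4 libraries. Bcl2a1b, which encodes a survival factor of the BCL2 family, stood at 64.9, 66.3, 62.8 and 43.0 CPM against 27.7 to 30.5 CPM and was called in 3. Ddit4, a stress-induced inhibitor of mTORC1, stood at 40.6, 58.5, 47.3 and 63.5 CPM against 13.3 to 31.9 CPM and was called in 2. Myc, a growth regulator induced on T cell activation, stood at 111, 133, 114 and 92.2 CPM against 67.9 to 79.2 CPM and was called in 2. These genes were picked out after their values had been seen. The cells were chosen by the same contrast, so the values are a description. Of the 2910 genes outside the definition measured in all 4 libraries, 31 were called higher in 3 or more, including the 24 called in all 4. Genes under the CPM minimum in a library, as Bcl2a1b was in KO-DOX, are outside that count. How many of all genes were called in 2 or more libraries was not counted, so these calls are not set against a background.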
